A study of Mus musculus with 45 samples.

Results

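The genes described here are imprinted genes of the mouse outside the Dlk1-Dio3 region, followed in induced pluripotent stem cells (iPSCs) made from different somatic cells. A list of 42 imprinted genes was matched by symbol to the probe sets of the arrays, and members without a probe set were dropped. In the table of passages 4, 6 and 16, 33 members had a probe set, 32 of them a probe set that names a single gene, among 11807 genes so measured. At passage 10, 39 members had a probe set and 37 had one of their own, among 12394 genes. H19, Igf2r, Peg10, Nnat, Zrsr1, Asb4, Ppp1r9a, Gatm and Inpp5f had no probe set under their names in the first table, and Mest shared its probe set there with Copg2. At passage 10, Zrsr1, Ppp1r9a and Inpp5f had none, and the probe sets of H19 and Snurf also carried another symbol.

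Arrays were run on 45 cultures, 3 clones in each of 15 groups, of lines obtained by secondary reprogramming. From mouse 1 came lines of granulocyte origin (Gra), taken at passages 4 and 16, and lines of skeletal muscle precursor origin (SMP), taken at passage 6. From mouse 2 came lines whose cell of origin was the tail tip fibroblast (TTF), the B or T cell of the spleen or the granulocyte of the bone marrow, each taken at passages 4, 10 and 16. All lines were kept in serum and LIF on irradiated embryonic fibroblasts, which were depleted by preplating before RNA was taken, so some fibroblast RNA may remain. Each line is a clone and each origin of a mouse comes from 1 animal, so the p-values measure how clones vary and say nothing of variation between animals. The passage 10 arrays were normalized apart from the others, and no value is compared across the 2 tables. Pluripotency genes were bright in every group of the first table (group means over 16 genes from 10.67 to 11.33). Their levels were not equal between groups, as given below for TTF lines.

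Imprinted genes are expressed mainly from the allele of 1 parent, because a methylation mark laid down in the egg or sperm is kept on that allele through development. Many of them act on growth in opposite ways: paternally expressed genes such as Igf2, Peg3, Mest and Plagl1 tend to promote growth or shape it, while maternally expressed genes such as Grb10, Cdkn1c, Phlda2, Igf2r and H19 tend to restrain it. In cultured pluripotent cells the marks can be lost or gained, and transcript levels alone do not show from which allele a gene is read. For Gnas, Inpp5f and Atp10a the active allele was listed as unsettled.

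The members sit in clusters, each governed by an imprinting control region. The protein ZFP57, with its partner TRIM28, holds methylation at many such regions and binds the methylated motif TGCCGC. Of 42 members, 35 had a promoter in the RefSeq set (GRCm38.p6), with 60 promoters in all. The 250 bases before the start held TGCCGC on either strand in 8 of these 60 promoters (13.3%) and in 2850 of 32851 promoters of all genes (8.68%). The median number of CG pairs in those bases was 11 in the members and 6 in all promoters. The promoters of 3 members on which the results below turn are shown 5′ to 3′, with any TGCCGC match (GCGGCA on the other strand) in capitals. The one of Plagl1 lies at chr10:13090582-13090831 on the plus strand and has 19 CG pairs and 1 match, starting at base 161. The other 2 genes belong to the Kcnq1 domain. They are Slc22a18, at chr7:143473539-143473788 on the plus strand with 0 CG pairs and 0 matches, and Osbpl5, which has 3 promoters in the set. The one shown, at chr7:143740361-143740610 on the minus strand, has 18 CG pairs and 1 match, starting at base 191, and the others have 14 and 1 CG pairs and 0 matches. A match is a string of letters and not evidence of binding.
Plagl1: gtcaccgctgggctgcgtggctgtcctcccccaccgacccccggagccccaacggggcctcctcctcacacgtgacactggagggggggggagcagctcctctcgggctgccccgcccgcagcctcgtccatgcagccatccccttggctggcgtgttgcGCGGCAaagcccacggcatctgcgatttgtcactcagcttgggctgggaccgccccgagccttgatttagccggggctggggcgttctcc
Slc22a18: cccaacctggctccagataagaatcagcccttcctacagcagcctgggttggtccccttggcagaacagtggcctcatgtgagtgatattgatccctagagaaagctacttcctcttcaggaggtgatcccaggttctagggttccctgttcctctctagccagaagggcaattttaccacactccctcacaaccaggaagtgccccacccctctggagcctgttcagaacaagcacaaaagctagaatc
Osbpl5: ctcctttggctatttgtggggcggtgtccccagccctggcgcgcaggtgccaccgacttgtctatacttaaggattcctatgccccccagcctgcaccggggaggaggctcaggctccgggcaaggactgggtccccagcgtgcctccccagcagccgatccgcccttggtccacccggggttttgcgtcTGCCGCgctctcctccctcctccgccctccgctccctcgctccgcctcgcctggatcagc

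Values are RMA log2 signals, and a difference of 1 is a doubling. They are compared for the same probe set only. Tests are from limma across all genes of a table, and a gene was called where its Benjamini-Hochberg adjusted p was under 0.05. Errors of differences are standard errors and n was 3 clones per group. Fits over both passages used all arrays of the table. Of the members in the first table, 10 stayed dim (for Zim1, Peg12, Gnas, Usp29, Kcnq1, Rasgrf1, Calcr, Mkrn3, Tfpi2 and Osbpl5 even the highest group mean was below 6.52, the median of all values), and small differences in them are near the floor of the array. Gnas was dim by the probe set that names it in this table, while another (1450186_s_at), named only in the passage 10 list, was bright. The difference between the 3′ and 5′ control probe sets of Gapdh and Actb, which widens as RNA is cut or labelled short, ran from 0.64 to 5.95 (median 1.98) over these 33 arrays and from 0.43 to 0.82 at passage 10. It lay lowest in the granulocyte lines of mouse 1 at passage 4 (mean 0.80) and highest in those of mouse 2 at passage 16 (3.41, 2.30 and 5.95). That last array, clone 3, also stood apart from its group (mean r with its group 0.92). Within groups, this difference moved with 30 of 52 member probe sets (57.7%), against 58.7% of all probe sets, and without clone 3 with 27.8% of all. At passage 10 it moved with 0 of 69 member probe sets and likewise with 0 of all probe sets. The difference ran only from 0.43 to 0.82 there, too narrow a range to tell whether the members move with it. Some results below are also given with this difference as a covariate.

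Among imprinted genes, the change shared by all 5 sets of lines taken at both passages 4 and 16 was a fall of Plagl1. Plagl1 (1426208_x_at) encodes a zinc finger protein that holds back cell division and regulates other imprinted genes. In TTF lines the clones stood at 9.0, 8.85 and 9.42 at passage 4 and 8.52, 7.54 and 7.85 at passage 16. In B cell lines they stood at 9.52, 9.26 and 9.67, then 8.52, 7.90 and 7.99. In T cell lines they stood at 9.03, 8.89 and 8.80, then 7.89, 7.69 and 7.65. Every clone at passage 16 was below every clone at passage 4 in these 3 origins. In the granulocyte lines of mouse 2, values went from 9.33, 9.62 and 9.18 to 7.51, 7.39 and 6.22. In those of mouse 1, they went from 9.53, 9.06 and 9.26 to 7.95, 8.17 and 7.33. In neither mouse did the passages overlap. Over the 4 origins of mouse 2 the mean change was -1.49 ± 0.14 (limma, adjusted p = 2.14e-08), a 2.81-fold fall. It was -1.12 in TTF, -1.35 in B, -1.16 in T and -2.33 in granulocyte lines of mouse 2, and -1.46 ± 0.27 in those of mouse 1 (limma, adjusted p = 0.00453). With the 3′ minus 5′ difference as a covariate the mean change was -1.20 (adjusted p = 7.82e-07), and each of these 5 changes was called. The TTF call was lost without clone 2 of passage 16 (-0.90). Fibroblast markers moved with passage as well: 14 of 28 were higher and 1 lower at passage 16 over the origins of mouse 2, and in mouse 1 their mean went from 6.86 to 7.44. With that mean as a covariate the Plagl1 change over the origins was still called, while the changes in TTF (-0.98), B (-1.17) and mouse 1 granulocyte lines (-1.32) were not called. Muscle precursor lines at passage 6 stood at 9.07, 8.89 and 8.95, 1.15 ± 0.27 above the granulocyte lines of mouse 1 at passage 16 (limma, adjusted p = 0.00461). A second Plagl1 probe set (1450533_a_at) was dim throughout.

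Over all origins of mouse 2, 14 of 32 members were called for passage, 8 higher and 6 lower at passage 16, while 29% of all genes were called. The share was 16.6% of all genes for higher and 12.4% for lower. The median change of the members was 0.02, against 0.07 for all genes. Beside Plagl1, those lower were Snurf (-1.43), Copg2 (-0.45), Cd81 (-0.35), Tssc4 (-0.31) and Nap1l4 (-0.23). Those higher were Sfmbt2 (1.48), Peg12 (1.10), Atp10a (0.90), Peg3 (0.85), Tfpi2 (0.51), Igf2 (0.46), Phlda2 (0.35) and Snrpn (0.29). Grb10, Cdkn1c, Impact, Ndn and the dim Gnas probe set were not called. The bright Gnas probe set (1450186_s_at) had means at passages 4 and 16 of 11.41 and 10.02 in T cell lines, without overlap. They were 11.14 and 10.71 in B cell, 10.26 and 10.68 in TTF and 10.76 and 10.70 in granulocyte lines. Within groups it fell as the 3′ minus 5′ difference widened (-0.32 per unit). With the 3′ minus 5′ covariate 11 members were called: Copg2, Nap1l4, Phlda2 and Snrpn dropped out and Ube3a came in. With the fibroblast marker mean as a covariate 5 were called: Plagl1, Sfmbt2, Peg12, Atp10a and Tfpi2.

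Sfmbt2, a polycomb group protein read from the paternal allele in early embryo and placenta, was the member that rose the most on average. TTF lines stood at 7.21, 4.93 and 5.11 at passage 4 and 8.60, 8.87 and 8.59 at passage 16. T cell lines stood at 7.35, 7.89 and 7.37, then 9.31, 9.0 and 8.82. B cell lines stood at 7.42, 7.26 and 7.38, then 8.83, 8.20 and 8.31. Passages did not overlap in these 3 origins. The rise was 2.94 ± 0.35 in TTF lines (limma, adjusted p = 3.14e-06) and 1.51 ± 0.35 in T cell lines (limma, adjusted p = 0.00318), and the change of 1.09 in B cell lines was not called. Granulocyte lines of mouse 2 (7.58, 7.78 and 7.83, then 8.31, 8.48 and 7.54) overlapped, and their change was not called. The overlap came from clone 3 of passage 16, the array that stands apart, and the other clones of passage 16 lay above all those of passage 4. The mean of the 4 origins was 1.48 ± 0.18 (limma, adjusted p = 1.47e-06), and 1.68 with the 3′ minus 5′ covariate.

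**Figure D1:**
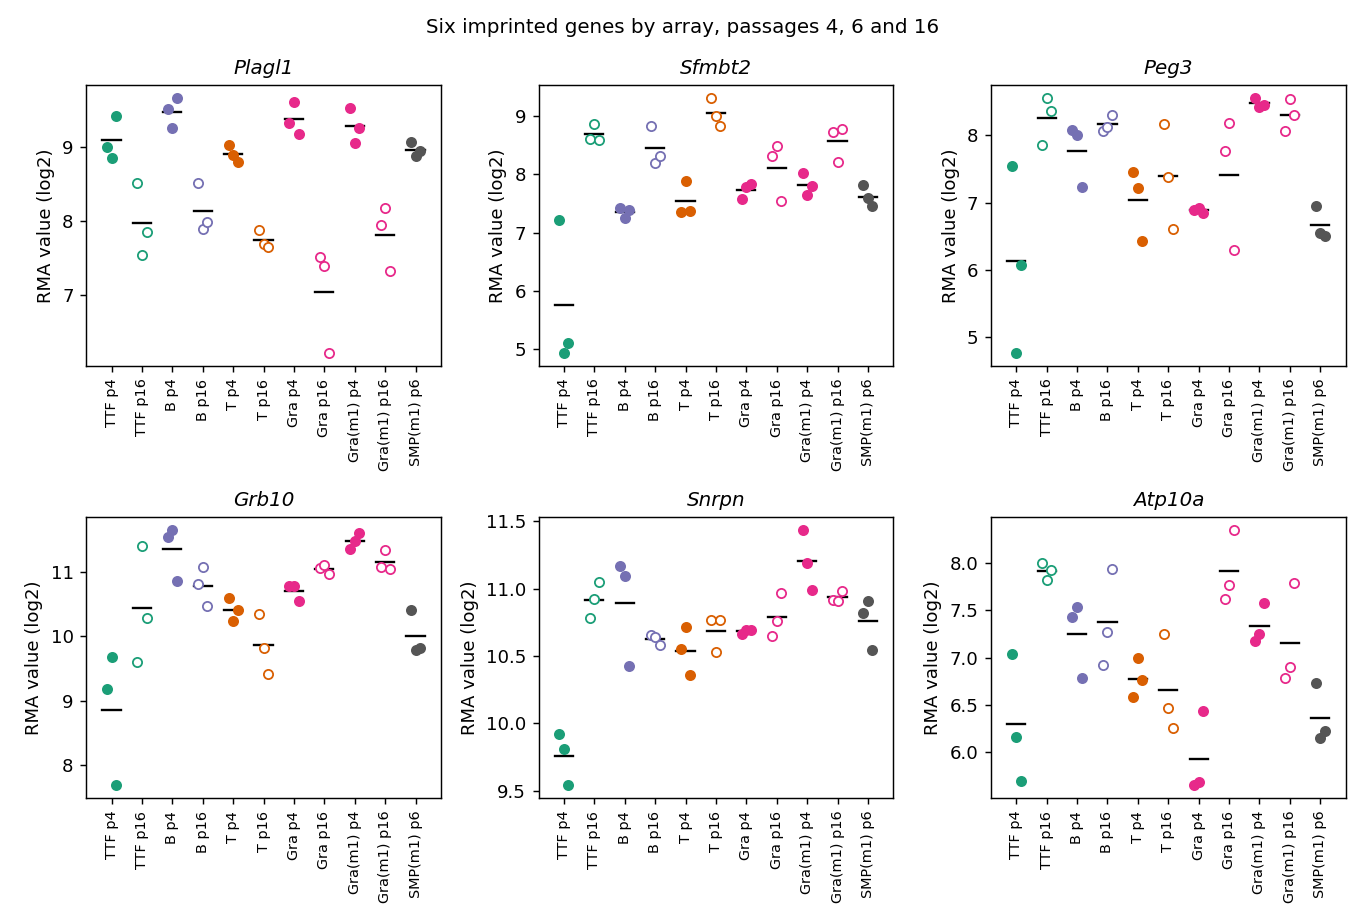
RMA log2 values of 6 imprinted genes in each of 33 arrays, by group (filled points: passages 4 and 6, open points: passage 16, bars: means of 3 clones, m1: mouse 1). Plagl1 lies lower at passage 16 in the 5 sets of lines with both passages, while the low Sfmbt2, Grb10 and Snrpn values of TTF lines at passage 4 are not seen at passage 16.

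Passage changes were not the same in each origin. The change differed among the 4 origins for 15 members (limma interaction test), against 32.8% of all genes, and these were Igf2, Grb10, Cdkn1c, Phlda2, Sgce, Impact, Peg12, Snrpn, Snurf, Sfmbt2, Plagl1, Slc22a18, Ube3a, Osbpl5 and Atp10a. By origin, 11 members were called in TTF lines (12.2% of all genes), 7 of them higher (5.76% of all) and 4 lower (6.43%), 4 in B cell lines (8% of all), 7 in T cell lines (17.9%) and 9 in granulocyte lines of mouse 2 (36%). With the fibroblast covariate these counts were 3, 0, 4 and 6. Leaving out 1 array gave 7 to 11 in TTF, 2 to 4 in B, 6 to 9 in T and 5 to 15 in granulocyte lines. In the granulocyte lines of mouse 1 only Plagl1 was called (1.14% of all genes). The B cell calls other than Plagl1 were Snurf (-2.92), Nap1l4 (-0.52) and Tfpi2 (0.66).

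**Figure D2:**
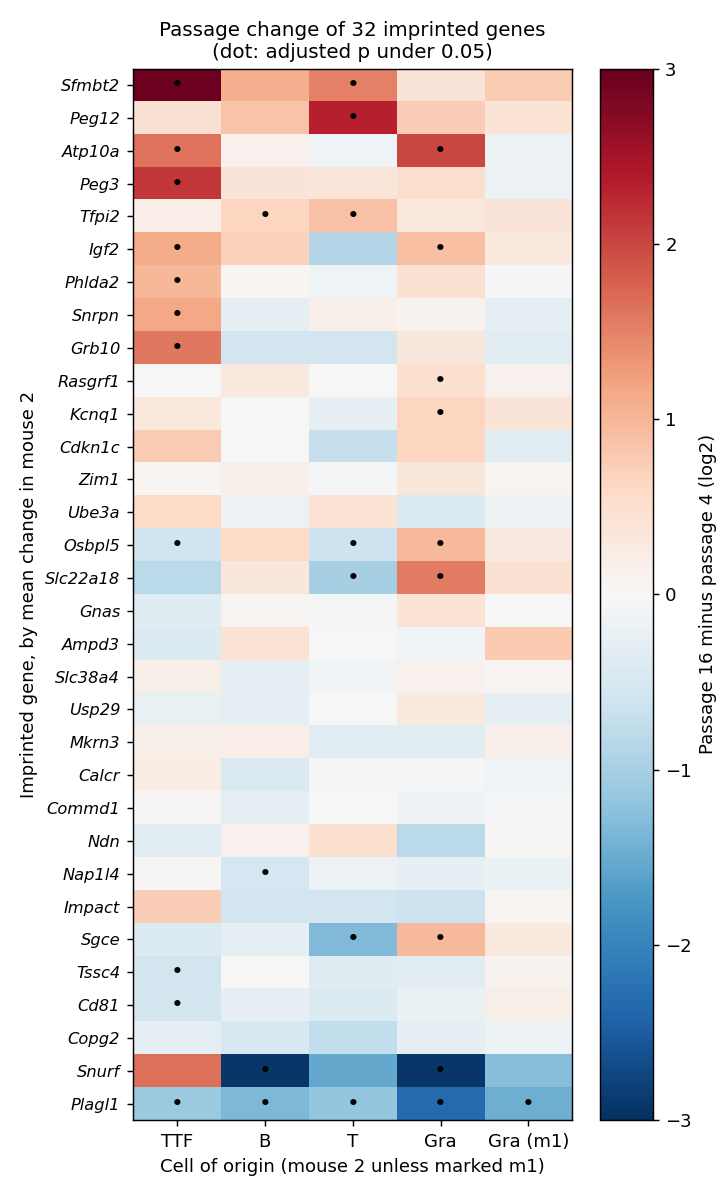
Passage 16 minus passage 4 (log2) of the 32 members with a probe set of their own, by origin, with a dot where the limma adjusted p was under 0.05. Plagl1, at the bottom, is marked in all 5 columns, while Slc22a18 and Osbpl5 are higher in granulocyte lines of mouse 2 and lower in T cell lines.

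The T cell lines held the clearest change of Peg12, a single exon gene of the Prader-Willi/Angelman domain read from the paternal allele. Clones stood at 3.89, 3.80 and 4.10 at passage 4 and at 6.17, 6.65 and 5.98 at passage 16. The passages did not overlap, and the rise was 2.34 ± 0.33 (limma, adjusted p = 1.91e-05). At passage 4 the T cell lines were below the other origins by -0.94 (limma, adjusted p = 0.0127), near the floor of the array.

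Lines from tail tip fibroblasts had low levels of several imprinted genes at passage 4, and some of these genes rose by passage 16. At passage 4, 18 of 32 members differed among the 4 origins of mouse 2 (39% of all genes), with a median range of origin means of 0.77 against 0.55 for all genes. In TTF lines 8 members were lower (7.85% of all genes) and 1 was higher (11.7%). Those lower were Snurf (-3.0), Grb10 (-1.98), Sfmbt2 (-1.79), Peg3 (-1.10), Snrpn (-0.95), Impact (-0.84), Phlda2 (-0.82) and Igf2 (-0.80). Osbpl5 was higher by 0.73. The median was -0.17 in the members and 0.06 in all genes.

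Grb10, an adaptor that dampens insulin and growth factor receptor signals, stood in TTF lines at 9.19, 9.68 and 7.68 at passage 4. The other origins of mouse 2 lay between 10.24 and 11.66, so no clone overlapped. The difference was -1.98 ± 0.30 (limma, adjusted p = 4.71e-05), and -1.96 with the 3′ minus 5′ covariate. At passage 16 the TTF clones read 9.61, 11.41 and 10.29, a rise of 1.59 ± 0.37 (limma, adjusted p = 0.00519), and the passages overlapped. This call was lost without passage 4 clone 3 (1.00) or passage 16 clone 2 (1.10). B cell lines were the highest of mouse 2 at passage 4 (11.55, 11.66 and 10.87), 1.37 ± 0.30 above the others (limma, adjusted p = 0.00494). Without clone 2 of the B cell lines it was 1.22 and not called. Endoderm markers were also higher there, 11 of 25 called. The Grb10 value with their mean as a covariate is not given here, and the cause was not tested.

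Snrpn, which encodes a splicing protein and lies at the control region of the Prader-Willi/Angelman domain, stood in TTF lines at 9.92, 9.81 and 9.54. The other origins lay between 10.36 and 11.17 and did not overlap with them. The difference was -0.95 ± 0.13 (limma, adjusted p = 1.51e-05), and -1.0 with the covariate. By passage 16 the TTF clones read 10.78, 10.92 and 11.05, a rise of 1.16 ± 0.16 (limma, adjusted p = 2.33e-05). The passage change of Snrpn was not called in the other origins.

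Peg3, a large zinc finger protein, stood in TTF lines at 7.54, 4.76 and 6.07 at passage 4 and at 7.86, 8.56 and 8.36 at passage 16, which did not overlap. It rose by 2.13 ± 0.47 (limma, adjusted p = 0.00302). The lower level at passage 4 (limma, adjusted p = 0.0415) was -0.29 and not called with the 3′ minus 5′ covariate. A brighter probe set named Peg3 only in the passage 10 list (1433924_at) read 11.52, 8.86 and 10.18, then 11.28, 11.77 and 11.62, which overlapped. Its passage 4 mean was 10.19 in TTF, 10.31 in granulocyte, 10.52 in T and 11.23 in B cell lines. Igf2, the growth factor ligand, rose in TTF lines from 6.63, 6.49 and 5.91 to 7.97, 7.16 and 7.27, by 1.12 ± 0.32 (limma, adjusted p = 0.0199). Phlda2, a placental growth restrainer, rose from 9.17, 8.37 and 8.48 to 9.65, 9.82 and 9.56, by 1.00 ± 0.22 (limma, adjusted p = 0.00312). Atp10a, a phospholipid transporter, rose from 7.04, 6.16 and 5.69 to 8.01, 7.83 and 7.93, by 1.63 ± 0.33 (limma, adjusted p = 0.00133). These 3 genes did not overlap between passages, and the Igf2 call was lost without passage 4 clone 3 (0.91) or passage 16 clone 1 (0.88). Impact, a regulator of the GCN2 stress kinase, read 10.30, 8.80 and 9.97, so that its low mean rested on clone 2, and without that clone the difference was -0.40 and not called. The Peg3 and Igf2 calls were also lost when single arrays were left out: without TTF clone 2 the Peg3 difference was -0.42, and without TTF clone 3 the Igf2 difference was -0.58. The 4 members lower at passage 16 in TTF lines were Plagl1, Osbpl5 (-0.61), Tssc4 (-0.56) and Cd81 (-0.56), and each of these 4 calls was lost without at least 1 array. Beside these changes, the mean of 28 fibroblast markers, which also mark feeder cells, was 6.88 in TTF lines at passage 4 and 7.46 at passage 16. With that mean as a covariate fewer members were called for passage in TTF lines, as counted above. Of 16 pluripotency genes, 5 were called lower in TTF lines at passage 4 (Pou5f1, Utf1, Sall4, Lin28a and Nr0b1) and 0 higher. The shares of all genes were 7.85% lower and 11.7% higher. The mean of these 16 genes at passage 4 was 10.81 in TTF, 10.83 in T, 11.21 in B and 11.33 in granulocyte lines. In TTF lines at passage 16 it was 11.02. The cause of these changes was not tested.

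A further group of members differed between T cell and granulocyte lines. Slc22a18 (an organic cation transporter), Osbpl5 (an oxysterol binding protein) and Kcnq1 (a potassium channel) belong to the Kcnq1 domain and Sgce, epsilon sarcoglycan, to the Peg10 cluster. At passage 4 Slc22a18 stood at 7.62, 8.45 and 7.88 in T cell lines, at 7.62, 7.29 and 7.30 in TTF lines, at 6.20, 6.61 and 6.46 in B cell lines and at 6.10, 6.05 and 6.32 in granulocyte lines. T cell lines were 1.32 ± 0.24 above the other origins (limma, adjusted p = 0.000301), and granulocyte lines differed by -1.11 ± 0.24 (limma, adjusted p = 0.00134). Sgce stood at 7.95, 7.98 and 7.48 in T cell lines and at 6.24, 6.40 and 5.96 in granulocyte lines, which did not overlap. Against the mean of the other origins, the T cell lines differed by 0.89 ± 0.28 (limma, adjusted p = 0.0257) and the granulocyte lines by -1.25 ± 0.28 (limma, adjusted p = 0.00149). Osbpl5 was higher in T cell lines by 0.63 and lower in granulocyte lines by -0.79, and Kcnq1 was higher in T cell lines by 0.63. Of the 6 members called in T cell lines (18.8% of all genes), the other 2 were Igf2 (1.32) and Peg12. Without clone 2 of the T cell lines the differences of Sgce (0.80), Osbpl5 (0.49), Kcnq1 (0.57) and Peg12 (-0.88) were not called, nor without clone 1 those of Sgce (0.81) and Peg12 (-0.92). In granulocyte lines 9 members were called (23.1% of all genes), and in B cell lines 8 (10.1% of all genes). The granulocyte count fell to 4 without its clone 1 and 5 without its clone 2, and Igf2, Osbpl5, Sgce and Slc22a18 were kept whichever array was left out. The B cell count fell to 2 without its clone 1 and 1 without its clone 2, and to 5 without TTF clone 2, T cell clone 2 or granulocyte clone 3, and only Snurf was kept throughout. Fibroblast markers were also higher in T cell lines at passage 4, 15 of 28 called, with a mean of 7.55 against 6.74 in B cell and 6.97 in granulocyte lines. The passage 4 values of these members with that mean as a covariate are not given here, and the cause was not tested.

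By passage 16 Slc22a18, Osbpl5 and Sgce had fallen in T cell lines and risen in granulocyte lines of mouse 2. In T cell lines the changes were -0.999 for Slc22a18, -0.62 for Osbpl5 and -1.32 for Sgce. In granulocyte lines they were 1.56 for Slc22a18, 0.97 for Osbpl5 and 0.97 for Sgce, and Kcnq1 rose by 0.65. The Slc22a18 clones of granulocyte lines stood at 7.0, 7.20 and 8.97 at passage 16, so that clone 3 stood highest, and without it the rise was 0.94. With the 3′ minus 5′ covariate the granulocyte changes of Slc22a18 (0.70) and Kcnq1 (0.13) were not called. With the clone number as a block, read as pairing the passages in granulocyte lines, Kcnq1 was not called (limma, adjusted p = 0.0653). Calls were also lost when single arrays were left out: in T cell lines Slc22a18 was -0.77 without passage 4 clone 2, -0.84 without passage 16 clone 1 and -0.97 without passage 16 clone 2. Osbpl5 was lost there without passage 4 clone 1 or 2 or passage 16 clone 1 or 3 (-0.48 to -0.60). Sgce in granulocyte lines was lost without clone 1 or 3 of either passage (0.83 to 0.99). Fibroblast markers moved in the same directions, with means from 7.55 to 6.97 in T cell lines (9 of 28 lower) and from 6.97 to 7.42 in granulocyte lines (10 of 28 higher). With that mean as a covariate Slc22a18 (-0.75) and Osbpl5 (-0.62) were not called in T cell lines. Cdkn1c, a cyclin dependent kinase inhibitor, lies in the same domain and was called in no origin at passage 4. Its passage change was -0.70 in T cell and 0.64 in granulocyte lines, neither of them called. Where these genes are imprinted, Slc22a18, Osbpl5 and Kcnq1 are read from the maternal allele and Sgce from the paternal one. The allele read in these lines was not measured.

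**Figure D3:**
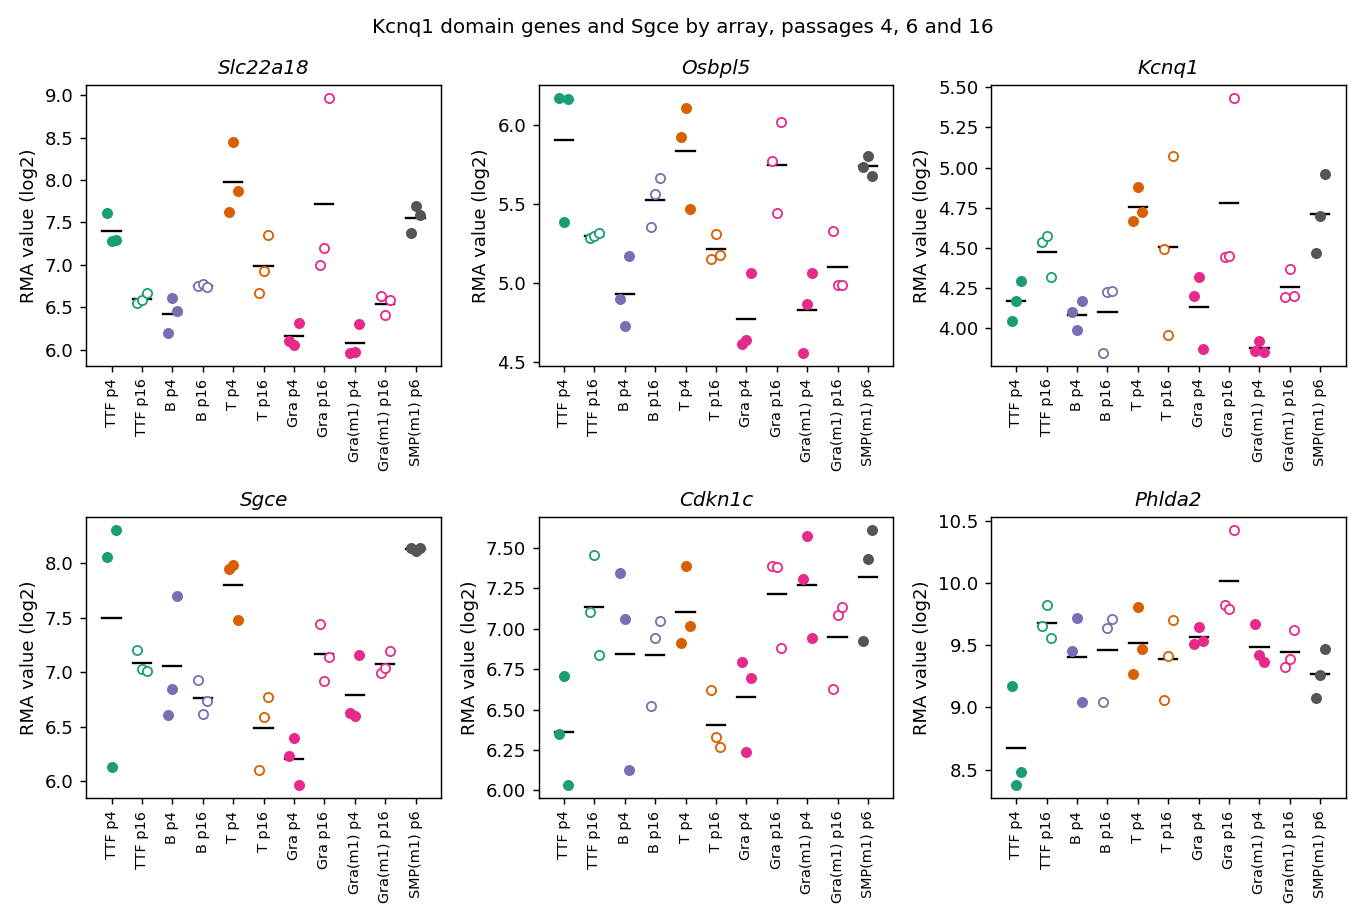
RMA log2 values of 5 Kcnq1 domain genes and Sgce in each of 33 arrays (filled points: passages 4 and 6, open points: passage 16, bars: means of 3 clones, m1: mouse 1). Slc22a18, Osbpl5 and Sgce are high in T cell, muscle precursor and most TTF clones at passage 4 or 6 and low in granulocyte clones of both mice at passage 4, while the Cdkn1c and Phlda2 clones of granulocyte lines of mouse 1 at passage 4 are not low.

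Atp10a moved apart between the granulocyte lines of the 2 mice. In mouse 2 the clones went from 5.65, 5.68 and 6.44 to 7.63, 7.76 and 8.35. In mouse 1 they stood at 7.17, 7.25 and 7.58, then 6.79, 6.90 and 7.79. Mouse 2 clones rose and mouse 1 clones overlapped between passages. The change was 1.99 in mouse 2 (limma, adjusted p = 8.85e-05), and the difference of the changes, mouse 1 minus mouse 2, was -2.17 ± 0.46 (limma, adjusted p = 0.0092). Atp10a was the single member called in that comparison, where 3.63% of all genes were, and with the 3′ minus 5′ covariate it was -1.68 and not called. At passage 4, 6 members differed between the granulocyte lines of the mice (7.73% of all genes): Peg3 (1.59), Atp10a (1.41), Igf2 (1.18), Snrpn (0.52) and Usp29 (0.51) were higher in mouse 1 and Tfpi2 (-0.60) lower. At passage 16, 5 differed (16.4% of all genes): Snurf (3.02), Plagl1 (0.78) and Ube3a (0.67) were higher in mouse 1, and Slc22a18 (-1.18) and Osbpl5 (-0.64) lower. None of these 5 was called with the 3′ minus 5′ covariate, and only Atp10a of the passage 4 calls was kept when each array was left out in turn.

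Muscle precursor lines at passage 6 were set against the granulocyte lines of mouse 1 at passage 4, where origin and passage change together. Of the 11 members called (21.7% of all genes), 5 were higher (11.6% of all) and 6 lower (10.1%) in muscle precursor lines. The Slc22a18 clones stood at 7.38, 7.69 and 7.59, against 5.96, 5.97 and 6.30 in granulocyte lines, a difference of 1.47 ± 0.30 (limma, adjusted p = 0.000647). Sgce (8.14, 8.11 and 8.14 against 6.63, 6.60 and 7.16) was higher by 1.34, and Osbpl5, Kcnq1 and Cd81 by 0.91, 0.83 and 0.62. None of these overlapped. Lower were Snurf (-1.85), Peg3 (-1.81), Grb10 (-1.48), Atp10a (-0.97), Ube3a (-0.90) and Snrpn (-0.45), and Grb10 clones stood at 10.42, 9.78 and 9.82 against 11.36, 11.48 and 11.62. Against granulocyte lines at passage 16, 7 were called (14.1% of all genes), among them Peg3 (-1.63), Grb10 (-1.16), Sgce (1.05), Slc22a18 (1.01) and Plagl1. Of those, Plagl1 alone was kept when each array was left out in turn. Beside these values, the fibroblast marker mean was 7.57 in muscle precursor and 6.86 in granulocyte lines at passage 4, and the endoderm marker mean was 6.89 against 8.0. With the fibroblast mean as a covariate 2 members were called at passage 4. The mean 3′ minus 5′ control difference was 1.73 in muscle precursor lines and 0.80 in granulocyte lines at passage 4. Within groups Snurf (-0.64 per unit) and the Peg3 probe sets named in the first list (-0.53 and -0.36) fell as it widened. The slopes of the Grb10 and Atp10a probe sets were not called. The cause of these differences was not tested.

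Snurf, a small protein encoded at the start of the Snrpn transcript, had the widest range of origin means at passage 4 of the members named in the first table and moved with the 3′ minus 5′ control difference. At passage 4 its clones read 5.01, 4.49 and 5.51 in TTF, 9.26, 9.33 and 8.75 in B, 7.04, 7.90 and 5.43 in T and 9.02, 8.55 and 6.73 in granulocyte lines. The range of origin means was 4.11 (limma, adjusted p = 1.25e-05). At passage 16 the mouse 2 clones lay between 4.46 and 7.16. Over all 33 arrays its level was high where the 3′ minus 5′ control difference was small and low where that difference was wide. With this difference as a covariate and without clone 3 of the granulocyte lines, the range at passage 4 was 1.70 (limma, adjusted p = 0.0421) and the mean passage change -0.57 (adjusted p = 0.066). Within groups the slope against this difference was -0.64 ± 0.15 per unit for Snurf (limma, adjusted p over probe sets = 0.00106) and 0.04 ± 0.06, not called, for Snrpn, which has its own probe set. The Peg10 probe set (1427550_at), named only in the passage 10 list, behaved alike: clones read 9.22, 8.63 and 8.82 in B cell lines and 4.62, 3.44 and 4.89 in TTF lines at passage 4. At passage 10, where the control difference was small in every array, all 12 arrays lay between 3.91 and 4.53 for it.

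**Figure D4:**
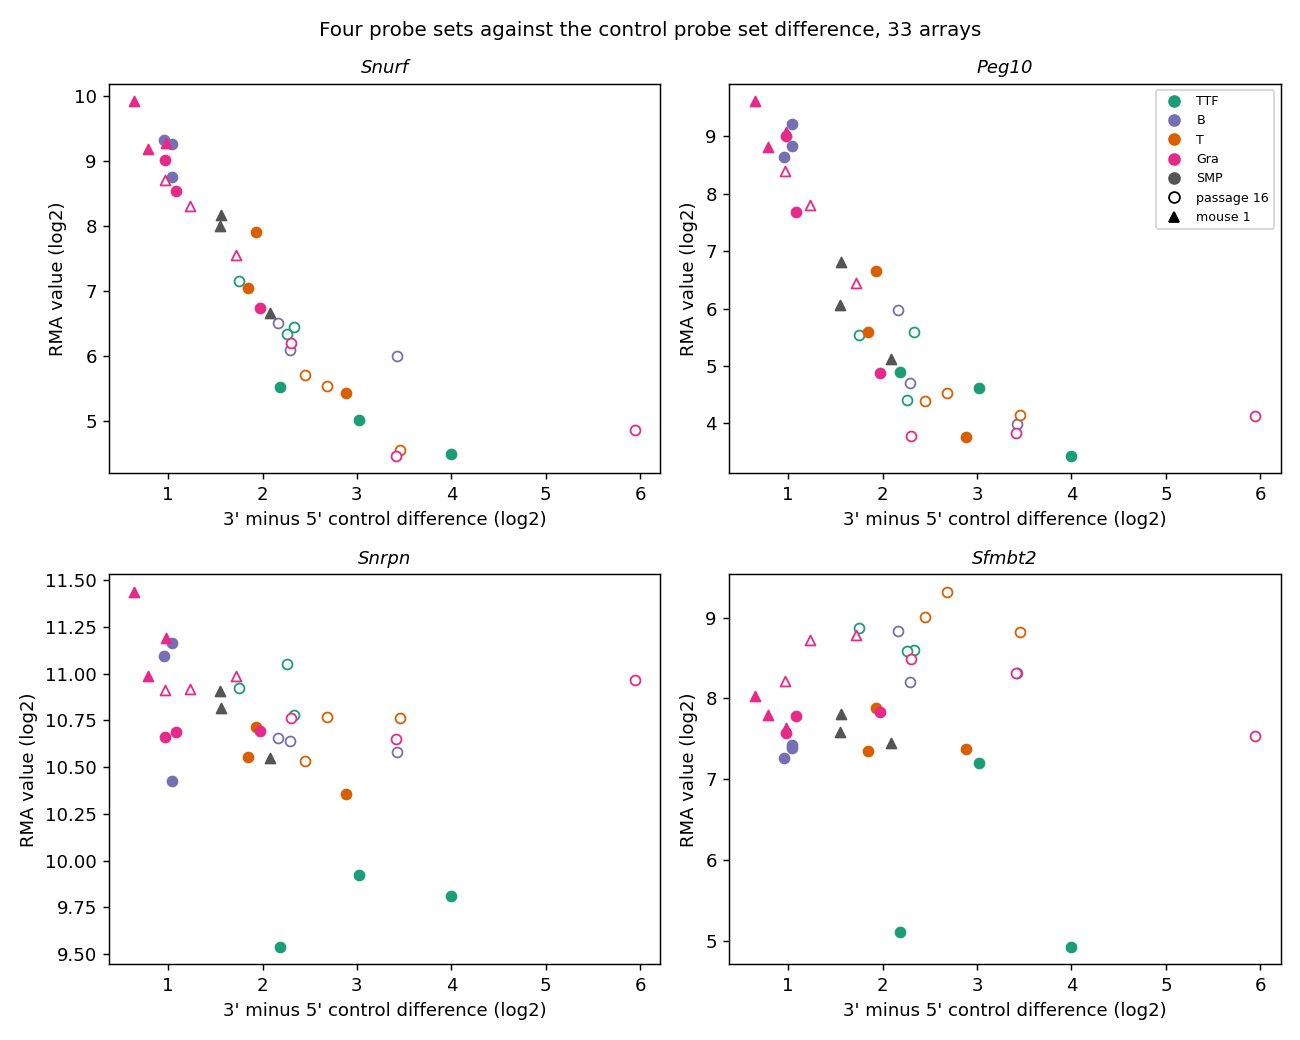
RMA log2 values of 4 probe sets against the 3′ minus 5′ control difference of the array in 33 arrays (triangles: mouse 1, open points: passage 16, colours: origin). Snurf and Peg10 are high in arrays with a small difference and low in those with a wide one, while the Snrpn values of all TTF clones at passage 4, and the Sfmbt2 values of clones 2 and 3 among them, lie below every other array.

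Several probe sets without a name in the first list carry member names in the passage 10 list under the same identifier. The mean levels of such probe sets in the 2 tables correlated with r = 0.914 across 2838 probe sets, against 0.922 for 17374 named alike, and probe sets are not independent. By those names, 4 Ndn probe sets (Ndn is a growth suppressor of neurons) were called higher in TTF lines at passage 4, by 0.92 to 1.03, and Nnat lower, by -0.81. These calls rested on TTF clone 2, the array with a 3′ minus 5′ control difference of 4.0: one Ndn probe set (1435382_at) read 8.10, 9.54 and 7.68. Without clone 2 the 4 Ndn differences were 0.40 to 0.49 and that of Nnat was -0.59, and none was called. With the 3′ minus 5′ covariate Nnat (-0.98) and the Ndn probe sets 1435382_at (0.81) and 1435383_x_at (0.75) were called. The others of these Ndn probe sets (0.27 and 0.29) were not. The probe set named Ndn in the first list (1415923_at) was not called. H19, a growth restraining noncoding RNA, shares its probe set with Mir675 and read 10.58, 10.89 and 11.06 in muscle precursor lines against 8.92, 9.36 and 7.89 in granulocyte lines at passage 4. That is a difference of 2.12 ± 0.53 (limma, adjusted p over probe sets = 0.00457), without overlap. The granulocyte lines of mouse 1 stood nearer at passage 16, with H19 at 9.97, 10.09 and 8.79. Clones varied widely in mouse 2, and single ones reached 10.99 in TTF and 10.64 in B cell lines at passage 16. Nnat in TTF lines went from 5.45, 4.94 and 5.79 to 7.34, 7.4 and 6.75, a rise of 1.77 ± 0.28 (limma, adjusted p over probe sets = 0.00011).

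At passage 16 the differences among origins were few. By the F-test 0 of 32 members were called (1.52% of all genes), with 12 at an unadjusted p under 0.05. The median range of origin means was 0.65 in the members and 0.43 in all genes. Atp10a was lower in T cell lines (-1.08; 2.86% of all genes called), a call that was not kept when each array was left out in turn. In granulocyte lines Plagl1 was lower (-0.91) and Slc22a18 higher (0.94), where 2.57% of all genes were called, and without clone 3 these were -0.50 and 0.32 and not called. In TTF and B cell lines 0 members were called, as were 0 of all genes, and 6 and 4 members had an unadjusted p under 0.05.

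At passage 10 the granulocyte lines differed from the other origins of mouse 2 in many genes. The share of members called in them (40.5%) was near that of all genes (38.2%). By the F-test 19 of 37 members were called (32.2% of all genes), and 15 in granulocyte against other lines (38.2% of all genes), 9 higher (21.1%) and 6 lower (17.2%). With the 3′ minus 5′ covariate 13 were called by the F-test, and the granulocyte difference of Snrpn (-0.31) was not called. Snrpn was read here from 1432096_at, because its other probe sets also carried the Snurf symbol at passage 10. That is not the probe set (1415895_at) used for Snrpn at passages 4 and 16. Ndn (1435383_x_at) read 9.23, 9.10 and 9.10 in granulocyte lines and lay between 9.51 and 9.84 in the others, without overlap. The difference was -0.52 ± 0.06 (limma, adjusted p = 5.28e-05). Igf2r, the receptor that removes Igf2 from the cell surface, read 9.48, 9.30 and 9.39 in granulocyte lines and between 8.60 and 9.01 elsewhere. The difference was 0.56 ± 0.07 (limma, adjusted p = 8.07e-05). A second Igf2r probe set (1424112_at) did not set them apart, with means of 7.71 in granulocyte, 7.94 in TTF, 7.63 in T and 7.45 in B cell lines. Mest, an enzyme of the hydrolase fold, read 10.02, 9.62 and 9.58, and the others lay from 10.13 upward, a difference of -0.63 ± 0.09 (limma, adjusted p = 0.000228). At passage 10 granulocyte lines were apart from the other origins by the probe sets used for these 3 genes, and not by the second Igf2r probe set. At passage 4 the Igf2r probe set used (1424111_at) had means of 8.57 in granulocyte, 8.83 in TTF, 8.93 in B and 9.02 in T cell lines. The Ndn probe set had means of 7.94 in granulocyte, 8.68 in TTF, 7.64 in B and 7.48 in T cell lines. Granulocyte lines were then lowest for Igf2r and not for Ndn. At passage 16 their means (8.94 and 8.20) lay within the range of the other origins.

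Ampd3, AMP deaminase, read 7.27, 7.74 and 7.4 in granulocyte lines against 5.87 to 6.79, a difference of 1.10 ± 0.18 (limma, adjusted p = 0.000411). The amino acid transporter Slc38a4 (10.90, 11.12 and 11.07) was higher by 0.46 and the tetraspanin Cd81 by 0.45. Cdkn1c was lower by -0.65 (7.79, 7.25 and 7.59). Further members higher were Sgce (0.57), Copg2 (0.56), Igf2 (0.45), Mkrn3 (0.31) and Grb10 (0.26), and lower were Asb4 (-0.51), Tfpi2 (-0.48) and Snrpn (-0.34). TTF lines had 9 members called (13.8% of all genes), led by Tfpi2 (0.79), Ube3a (0.73; 10.67, 10.75 and 9.70), Sgce (-0.41), Copg2 (-0.39) and Ndn (0.36). Of these 9, only Ndn and Tfpi2 were kept when each array was left out in turn, and the count fell to 2 without TTF clone 2, 4 without TTF clone 1, and 5 without granulocyte clone 3 or B cell clone 2. In B cell lines 0 members were called, as in T cell lines, with 0.0645% and 0.0242% of all genes called and 8 and 9 members at an unadjusted p under 0.05. Peg3 (12.21 to 12.26 by origin mean), Phlda2 and Peg10 were not called, nor was Nnat. The fibroblast marker mean went alongside: 8.02 in granulocyte, 8.38 in B, 8.50 in T and 8.93 in TTF lines. With it as a covariate 3 members were called by the F-test, and 0 in granulocyte or TTF lines against the others.

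**Figure D5:**
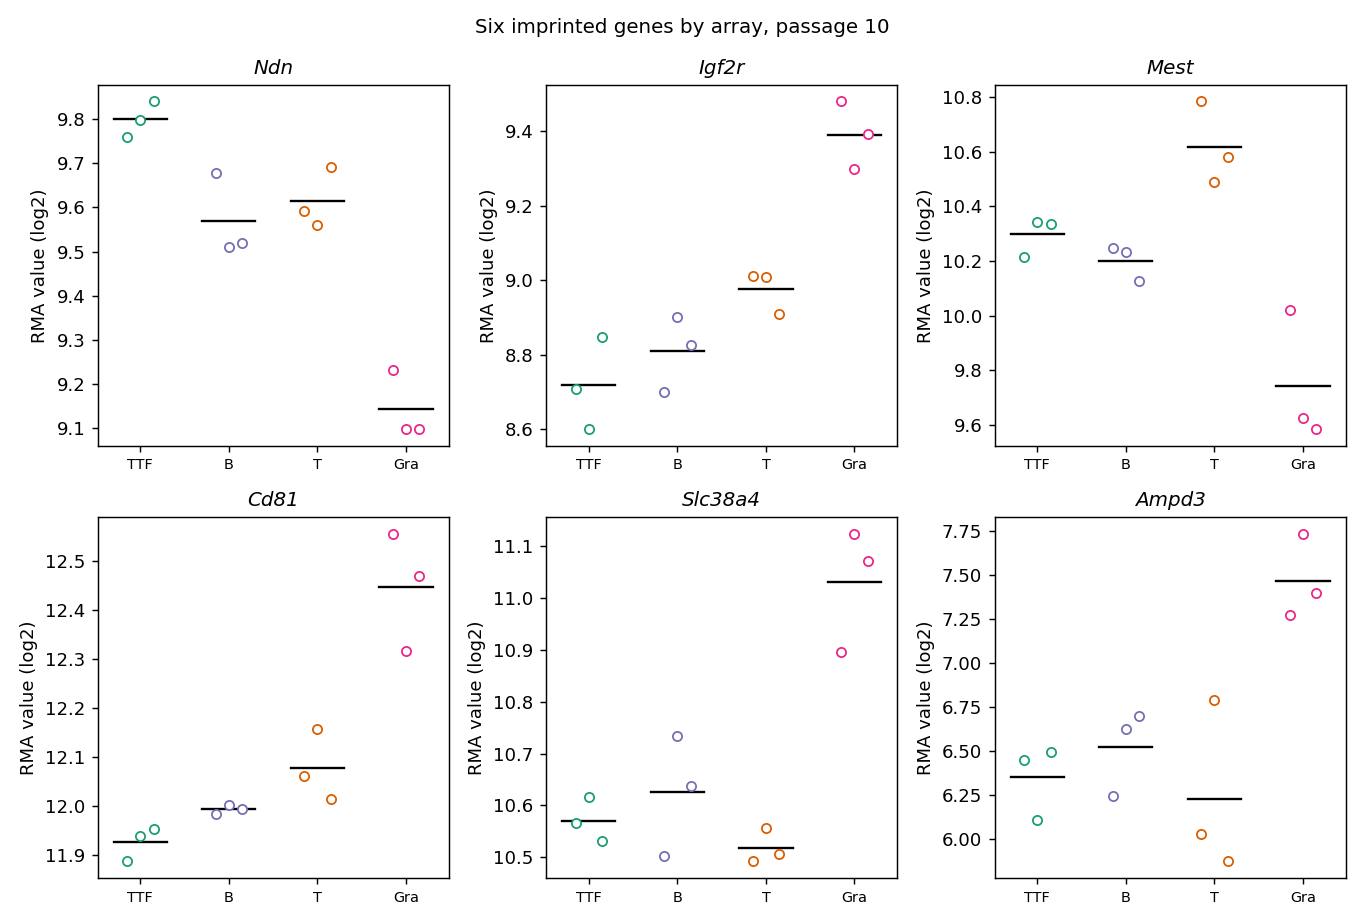
RMA log2 values of 6 imprinted genes in the 12 arrays of passage 10, each from its brightest probe set, 3 clones for each origin (bars: means). The 3 granulocyte clones lie above all others for Igf2r, Cd81, Slc38a4 and Ampd3 and below all others for Ndn and Mest.

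No pair of neighbours in a cluster passed a test of moving together from clone to clone. Within-group deviations of 8 pairs were correlated (permutation tests, adjusted over the 8). At passage 10 Peg10 and Sgce had r = 0.54 and rho = 0.55 (n = 12, permutation p = 0.115 and 0.099, adjusted p = 0.661 and 0.509), and r = 0.34 with the 3′ minus 5′ deviations regressed out. Without the 2 arrays farthest out, r at passage 10 was 0.66 for Peg10 and Sgce, 0.65 for Ndn and Snrpn and 0.66 for Cdkn1c and Phlda2, and the lowest adjusted permutation p for r was 0.377. Mest and Copg2 had r = -0.20, Ndn and Snrpn 0.31, Cdkn1c and Phlda2 0.29, and Peg3 and Usp29 0.16. In the first table (n = 33) Peg3 and Usp29 had r = 0.01, Ndn and Snrpn -0.22, and Cdkn1c and Phlda2 0.28. Ndn and Snrpn were each read from a different probe set there than at passage 10. Over the 7 pairs other than Peg10 and Sgce the permutation p ran from 0.222 to 0.977 for r and from 0.127 to 0.665 for rho, and no adjusted p was under 0.05.

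Genes that keep or write imprints were listed as well, 19 measured in the first table and 21 at passage 10. At passage 4, TTF lines were lower in 5 of 19 (Dnmt3a, Dnmt3l, Uhrf1, Setdb1 and Ezh2), against 7.85% of all genes lower, and by passage 16 they had risen in 6 (Dnmt1, Dnmt3a, Dnmt3b, Dnmt3l, Uhrf1 and Ezh2), against 5.76%. These encode DNA methyltransferases, the cofactor Dnmt3l, Uhrf1, which recruits Dnmt1, and histone methyltransferases. Over the origins of mouse 2, 7 were called for passage, 6 higher (16.6% of all genes) and 1 lower (12.4%). In granulocyte lines of mouse 2, 8 were called for passage (36% of all genes), 2 higher (22%) and 6 lower (14%). The mean over the 19 genes was 10.32, 10.43 and 10.41 by clone at passage 4 and 10.37, 10.40 and 9.61 at passage 16. The low value is that of clone 3, the array that stands apart, and the counts without it are not given here. At passage 10, granulocyte lines had 10 of 21 called, beside 38.2% of all genes, 2 higher (21.1%) and 8 lower (17.2%), among them Trim28, Zfp57, Zfp445 and Dppa3.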

How the data were processed

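The deposited values are log2 signals made by the authors with RMA, per the labels; its version and annotation are not given in the sources used here. Probe sets were named through the platform lists: 18003 of 22690 carried 1 symbol in the table of 33 arrays (passages 4, 6 and 16) and 20393 in the passage 10 table. Each gene was read from its brightest probe set, and probe sets with several symbols named none. Each table was fitted with limma 3.58.1 (R 4.3.3; lmFit, eBayes), with 1 mean per group over all its arrays, and tested on simulated data. F-tests covered the 4 origins. Correlations used 100000 permutations (Python 3.11.15, scipy 1.17.1). The members and lists were chosen with earlier results of these data known. Named were the called members, up to 12 by size in the F-tests and the mean passage change and up to 5 in other contrasts, plus a fixed set of well known members; further members were named after their values were seen. Alternatives were other normalizations, the mean of probe sets, a filter on dim genes, the compared groups only, array weights, marker lists as covariates, a clone number block and each array left out. The 3′ minus 5′ covariate and the fit without the array standing apart were chosen after seeing the data. Clone numbers were read as pairing the passages only where every pair had r over 0.1, in granulocyte lines of both mice (r 0.169 to 0.384). Over all lines a number picked its own later array in 8 of 15 pairs, and not for granulocyte clone 1 of mouse 2. Pairing is thus not established. The number of arrays limits the precision.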

Additional observations from a re-analysis of the deposited data

Results flagged for a closer look

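The passage change differed among the 4 origins of mouse 2 for 15 members (limma interaction test, adjusted p). For the Kcnq1 domain genes Osbpl5 (8.09e-05) and Slc22a18 (0.000134) and for Sgce (0.00525), granulocyte lines rose and T cell lines fell. For Snrpn (0.000234), Sfmbt2 (0.00193), Grb10 (0.00548) and Phlda2 (0.0255), the TTF lines had the highest change. Snurf had 0.00017, Atp10a 0.00118, Igf2 0.00373, Peg12 0.00909, Cdkn1c 0.0101, Impact 0.0155, Ube3a 0.0232 and Plagl1 0.0388. With the 3′ minus 5′ covariate, Impact, Plagl1, Sfmbt2 and Ube3a were not called. The Atp10a passage change of granulocyte lines, mouse 1 minus mouse 2, was -2.17, with 1 mouse on each side.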

How the results depend on the processing

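Counts of members called by limma are given, with that of the reported fit in brackets or after "of". With array weights, whose estimation stopped before convergence, counts were 28 for origins at passage 4 (18), 19 at passage 16 (0), 24 for the interaction (15), 17 for passage in mouse 1 (1), 21 and 17 for muscle precursor against granulocyte lines at passages 4 (11) and 16 (7), and 18 and 20 for mouse 1 against mouse 2 at passages 4 (6) and 16 (5). The fibroblast covariate left 3 of 19 at passage 10, 5 of 14 for passage, 0 of 1 for passage in mouse 1 and 2 of 11 for muscle precursor lines at passage 4. The endoderm covariate gave 8 at passage 10, 2 at passage 16, and 3 and 3 between the mice at passages 4 and 16. Between the mice at passage 16, quantile normalization gave 3, cyclic loess 2, the compared groups alone 0, and the 3′ minus 5′ covariate 0 with or without the array standing apart, and Plagl1 turned to -0.0036. For origins at passage 16 that covariate gave 1, also without that array. The compared groups alone gave 12 for muscle precursor against passage 16 granulocyte lines and 10 between the mice at passage 4. Leaving out 1 array gave 13 to 17 for origins at passage 4, 12 to 19 at passage 10, 0 to 8 at passage 16, 13 to 16 for passage, 12 to 20 for the interaction, 1 for passage in mouse 1, 7 to 10 and 1 to 5 for muscle precursor lines, and 1 to 3 and 0 to 15 between the mice. Counts moved by over 1.5 times at passage 10 without granulocyte clone 3 (12), at passage 16 without granulocyte clone 2 (8) or 1 (3) or B cell clone 3 (1), and for muscle precursor lines against passage 4 without their clone 3 (7). Against passage 16 granulocyte lines they did so without muscle precursor clone 2 or 3 (1 and 1) or granulocyte clone 1, 2 or 3 (4, 2 and 1). Between the mice at passage 4 they did so without any of the 6 arrays, and at passage 16 without mouse 1 clone 1 or 2 (0 and 0) or mouse 2 clone 1, 2 or 3 (12, 15 and 0). The cause of these shifts was not tested. The clone number was read as pairing the passages in granulocyte lines only. As a replicate block it gave 1 for passage in mouse 1 (Plagl1, adjusted p = 0.0131) and 7 of 9 in granulocyte lines of mouse 2, where Kcnq1 and Rasgrf1 were lost. Elsewhere (r from -0.317 to 0.41) it gave 17 at passage 4, 15 at passage 10, 0 at passage 16 and 13 for passage. With 3 clones from 1 mouse per group, precision is limited, and 10 and 14 members were dim in the 2 tables.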
